A study of Homo sapiens with 14 samples.

Results

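The 37 genes described here encode the machinery of autophagy and the lysosome. They were chosen by symbol from the 63677 genes in each of 2 tables of RNA levels. RNA was sequenced from KYSE510, an established line of esophageal squamous cell carcinoma, 48 h after lipid transfection of small interfering RNA (siRNA). In the EZH2 series the groups were siEZH2_2, siEZH2_1 and siNC, and in the LAT1 series they were siLAT1_3, siLAT1_2 and a separate siNC, with 2 libraries per group and 12 in all. The pairs of siRNAs target EZH2, the methyltransferase of Polycomb repressive complex 2, and SLC7A5, whose product LAT1 imports large neutral amino acids. All groups were cells of 1 line grown in serum-containing RPMI-1640 medium, so the comparisons describe partial, transient knockdown in that line. The labels do not say whether replicate libraries came from separate cultures. The p-values therefore reflect the variation among these particular libraries, which could be technical.

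Autophagy encloses cytoplasm in a double membrane and delivers it to the lysosome, where acid hydrolases break it down. The ULK1 kinase complex and the BECN1 lipid kinase complex start the membrane, ATG9A, ATG2A and the WIPI proteins help it grow, and a conjugation system anchors proteins of the ATG8 family (LC3 and GABARAP) to it. Lysosomes are acidified by the proton pump V-ATPase. The transcription factors TFEB, TFE3 and MITF bind an element named CLEAR, found near the starts of many lysosomal genes. When amino acids are plentiful, the kinase mTORC1 holds both ULK1 and TFEB in check.

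The libraries summed to between 245634 and 275399 FPKM (read or fragment counts scaled by gene length and library depth), and 11465 to 11794 genes per library reached 1 FPKM. The EZH2 series was sequenced more deeply, with an estimated 21000000 to 27060000 reads per library by the spacing of low values, against 12680000 to 16340000 in the LAT1 series. EZH2 stood at 36.4% of the siNC level with siEZH2_2 and 40.6% with siEZH2_1, and SLC7A5 at 26.0% with siLAT1_3 and 20.3% with siLAT1_2. SLC7A5 also stood at 78.6% with siEZH2_2 and 24.9% with siEZH2_1, whereas EZH2 was at 93.8% with siLAT1_3 and 98.4% with siLAT1_2. All 6 squamous epithelial markers averaged at least 1 FPKM in both series. The lowest was KRT17 in the EZH2 series, at 2.20 FPKM, against 26.6 FPKM in the LAT1 series. Of 6 fibroblast, 6 immune and 5 endothelial markers, no more than 1 of each reached 1 FPKM, and the highest averaged 2.00 FPKM.

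A gene was kept in a table where its mean over the 6 libraries was at least 1 FPKM. This kept 36 of the 37 genes among 11585 in the EZH2 series and 34 among 11678 in the LAT1 series. HEXA, a subunit gene of the lysosomal hexosaminidase, was left out of both (0.65 and 0.653 FPKM). GABARAP, of the ATG8 family, and TFEB were left out of the LAT1 series (0.442 and 0.838 FPKM). The kept genes nearest the limit were MITF in the EZH2 series (1.015 FPKM) and WIPI1 in the LAT1 series (1.49 FPKM). Fold changes are differences of log2(FPKM + 1), which understate the change of low genes. A gene was called at a Benjamini-Hochberg adjusted p under 0.05 over all genes kept, from limma fits of each series.

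Promoter sequences were searched for an exact 8-letter form of the CLEAR element, so genes without a match are not shown to lack it. RefSeq promoters (GRCh38.p14, 250 bases before to 50 after the start) were matched for 30 of the 37 genes, giving 39 promoters. RB1CC1, HEXA, LAMP2, CTSB, UVRAG, ATP6V1H and ATP6V1A had no entry. The letters GTCACGTG, or CACGTGAC where the element lies on the other strand, occurred in 7 of the 39 promoters (17.9%), against 2.4% of all 35116 promoters. The shared core CACGTG, which both spellings contain, occurred in 7.26% of all promoters. The 7 genes were LAMP1, MCOLN1, CTSA, CTSD, ATP6V0D1, ATG14 and ATG3, and LAMP1 had 6 copies. The 5 with a called change in at least 1 comparison given here are printed 5′ to 3′ on the gene's strand, ending at the base before the start, with the element in capitals.
ATG14, chr14:55411831-55411910, minus strand: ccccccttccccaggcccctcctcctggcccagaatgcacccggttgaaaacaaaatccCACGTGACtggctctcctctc
LAMP1, chr13:113297039-113297238, plus strand: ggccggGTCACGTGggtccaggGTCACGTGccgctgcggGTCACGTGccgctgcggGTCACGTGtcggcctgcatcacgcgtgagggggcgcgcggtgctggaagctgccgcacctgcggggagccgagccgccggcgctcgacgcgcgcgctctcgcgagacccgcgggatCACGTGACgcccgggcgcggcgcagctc
MCOLN1, chr19:7522544-7522623, plus strand: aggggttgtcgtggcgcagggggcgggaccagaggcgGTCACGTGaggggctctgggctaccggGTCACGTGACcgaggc
CTSA, chr20:45891255-45891334, plus strand: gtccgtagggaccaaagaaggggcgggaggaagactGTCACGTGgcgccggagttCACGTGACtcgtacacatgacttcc
ATP6V0D1, chr16:67481158-67481237, minus strand: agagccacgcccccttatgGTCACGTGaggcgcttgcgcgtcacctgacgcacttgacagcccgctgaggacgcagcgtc
In MCOLN1 the copy nearest the start is the 10-letter palindrome GTCACGTGAC, which reads as the element on both strands. The last copy of LAMP1 crosses the start and is not in the printed stretch. A match is a description of the letters only. CLEAR is found near many lysosomal genes and these genes were chosen by pathway, so their higher share is not an independent result.

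**Figure D1:**
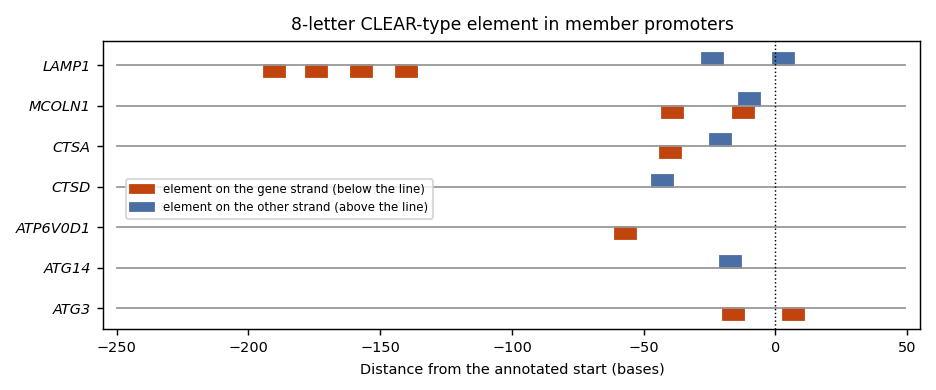
Positions of the 8-letter CLEAR-type element in the 7 promoters that hold it, as distance in bases from the annotated start (dotted line). Orange boxes below a line are copies on the gene's strand and blue boxes above it are copies on the other strand. LAMP1 has 6 copies, 4 of them in a row far from the start.

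In siNC cells the genes spanned a wide range of levels per length. SQSTM1, which encodes the cargo receptor p62, and the lysosomal membrane glycoprotein gene LAMP1 led the EZH2 series at 42.1 and 41.6 FPKM. CTSB, a cysteine protease of the lysosome, led the LAT1 series at 90.7 FPKM, followed by SQSTM1 at 70.4 FPKM. The median over the genes was 11.7 FPKM in siNC of the EZH2 series and 10.5 FPKM in siNC of the LAT1 series. Of the transcription factor genes, TFE3 stood at 17.9 FPKM in siNC of the EZH2 series, MITF at 1.29 FPKM and TFEB at 1.25 FPKM.

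The siNC cells of the series differed in a few of these genes. CTSB had 90.7 FPKM in siNC of the LAT1 series and 14.8 FPKM in siNC of the EZH2 series, a log2 ratio of 2.62. NPC1, which exports cholesterol from the lysosome, had 13.8 FPKM in siNC of the LAT1 series and 5.46 FPKM in siNC of the EZH2 series (log2 ratio 1.34). ATG14 had 5.22 FPKM in siNC of the LAT1 series and 2.24 FPKM in siNC of the EZH2 series (log2 ratio 1.22). GABARAP ran the other way, with 0.565 FPKM in siNC of the LAT1 series and 1.495 FPKM in siNC of the EZH2 series. The median log2 ratio over the 10804 genes kept in both was -0.139. The tables were normalized separately and these differences were not tested.

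In the EZH2 series the question is how these genes respond when the EZH2 transcript is reduced. With the mean of both siRNAs, 7 of 36 genes were higher than in siNC and 6 were lower, while 23 were not called. ULK1 and WIPI2, of the initiation and growth steps, had the largest rises. The shares, 19.4% higher and 16.7% lower, are near those of all genes, of which 17.0% were called higher and 13.0% lower. The median fold change over the 36 genes was -0.045 and that over all genes was 0.026. With siEZH2_2 alone, 5 genes were higher and 6 lower (13.9% and 10.9% of all genes, 24.8% in either direction). With siEZH2_1 alone, 7 were higher and 2 lower (15.9% and 11.4% of all genes, 27.2% in either direction). Of the 13 calls with the mean, against 30.0% of all genes, 4 were made with each siRNA alone in the same direction, all of them rises (ULK1, WIPI2, BECN1 and GABARAPL2), where 8.93% of all genes were called higher and 4.05% lower with each. No gene of the 36 was called in opposite directions by the siRNAs, against 0.570% of all genes. With 1 library left out, the higher calls numbered 4 without siNC replicate 1 and 3 without siNC replicate 2, and the lower calls 0 to 3 whichever library was left out. The genes called the same way with each siRNA were 2 without siEZH2_1 replicate 1 or 2, siEZH2_2 replicate 1 or siNC replicate 2. RNA was measured in bulk, so fewer cells of a kind and less RNA per cell cannot be told apart.

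All 6 genes of initiation and nucleation were called with the mean in the EZH2 series, 4 higher and 2 lower. Of all genes, 17.0% were called higher and 13.0% lower, or 30.0% in either direction. Only 2 of the 6, ULK1 and BECN1, were called with each siRNA alone. ULK1 (ENSG00000177169), the kinase that starts autophagy, had 5.92 and 5.57 FPKM with siEZH2_2, 5.39 and 5.5 FPKM with siEZH2_1 and 2.83 and 3.12 FPKM with siNC. Every siEZH2 library lay above both siNC libraries, and the fold change was 0.73 ± 0.064 (SE; adjusted p = 0.000684). ATG13, an adaptor of the ULK1 complex, had 21.5 and 20.4 FPKM with siEZH2_2, 22.6 and 23.1 FPKM with siEZH2_1 and 17.8 and 18.7 FPKM with siNC, a rise of 0.25 ± 0.049 (SE; adjusted p = 0.0119). RB1CC1, the scaffold FIP200 of the same complex, went the other way, with 15 and 18.5 FPKM with siEZH2_2, 23.01 and 19.9 FPKM with siEZH2_1 and 27.3 and 23.1 FPKM with siNC. Its lower siNC library lay just above the higher siEZH2_1 library, and the fold change was -0.39 ± 0.11 (SE; adjusted p = 0.0368).

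BECN1 (ENSG00000126581), the core of the lipid kinase complex, had 15.3 and 14.9 FPKM with siEZH2_2, 14.98 and 14.4 FPKM with siEZH2_1 and 12.2 and 11.6 FPKM with siNC. The siEZH2 and siNC libraries did not overlap, and BECN1 rose by 0.30 ± 0.051 (SE; adjusted p = 0.0073). ATG14, which directs that complex to autophagosome formation, had 3.32 and 4.13 FPKM with siEZH2_2, 2.87 and 2.87 FPKM with siEZH2_1 and 2.33 and 2.15 FPKM with siNC. It rose by 0.40 ± 0.088 (SE; adjusted p = 0.0177), with a call for siEZH2_2 (0.54 (adjusted p = 0.0114)) and none for siEZH2_1 (0.26 (adjusted p = 0.106)). UVRAG, which takes the place of ATG14 in another form of the complex, had 4.52 and 5.45 FPKM with siEZH2_2, 3.37 and 3.36 FPKM with siEZH2_1 and 5.2 and 5.27 FPKM with siNC. Its fall was carried by siEZH2_1 (-0.51 (adjusted p = 0.00881)), since siEZH2_2 overlapped siNC (-0.063 (adjusted p = 0.641)).

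The calls for ULK1 and WIPI2, with the mean and with each siRNA, held under every alternative in which they were tested. With siEZH2_1 alone, BECN1 and GABARAPL2 lost their calls without either siEZH2_1 library or siNC replicate 2, and BECN1 also without siNC replicate 1. With siEZH2_2 alone, both lost them without siEZH2_2 replicate 1 or siNC replicate 2, and GABARAPL2 also without siEZH2_2 replicate 2. The values that follow are for the mean unless a single siRNA is named. Without siNC replicate 2, BECN1 had an adjusted p of 0.054 and GABARAPL2 one of 0.0533. Without siNC replicate 1, ATG13 had 0.101, ATG14 had 0.0724 and RB1CC1 had 0.223, and without siNC replicate 2, ATG14 had 0.0915. With siEZH2_2 alone, ATG14 had 0.0548 without siNC replicate 2, and with siEZH2_1 alone, UVRAG had 0.0521 without siEZH2_1 replicate 2. RB1CC1 also lost its call without siEZH2_1 replicate 2 (0.0864) and without siEZH2_2 replicate 1 (0.0635). UVRAG lost it without any single library except siEZH2_2 replicate 2 (0.0563 to 0.148).

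Of the 4 genes of membrane growth, WIPI2 alone was called with the mean of both siEZH2 siRNAs. WIPI2 (ENSG00000157954), which reads the lipid made by the BECN1 complex and recruits ATG16L1, had 12.1 and 12.1 FPKM with siEZH2_2, 12.9 and 12.8 FPKM with siEZH2_1 and 7.92 and 8.16 FPKM with siNC. The siEZH2 libraries all lay above both siNC libraries, a rise of 0.58 ± 0.048 (SE; adjusted p = 0.000588). Its relative WIPI1 had a fold change of 0.00078 (95% interval -0.18 to 0.19, adjusted p = 0.996). ATG2A, a lipid transfer protein, and ATG9A, the lipid scramblase of the vesicles that seed the membrane, had 0.028 and -0.069 and are described with the differences between siRNAs.

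None of the 6 genes of ATG8 conjugation (ATG3, ATG4B, ATG5, ATG7, ATG12 and ATG16L1) was called by limma in the EZH2 series, with 1 at an unadjusted p under 0.05. That gene was ATG5, whose product is joined to ATG12, with 14.6 and 15.2 FPKM with siEZH2_2, 14.97 and 14.7 FPKM with siEZH2_1 and 16.5 and 16.2 FPKM with siNC and a fold change of -0.13 (95% interval -0.24 to -0.017, adjusted p = 0.0816). The other 5 lay between -0.086 for ATG12 and 0.018 for ATG7, the enzyme that activates both ATG12 and the ATG8 proteins. ATG3 shares its locus with SLC35A5, which had a fold change of -0.46 (adjusted p = 0.00853). Other members that overlap a protein-coding gene found by symbol and kept were ATG7 (VGLL4), ATG13 (HARBI1), WIPI1 (PRKAR1A), SQSTM1 (MGAT4B), GABARAP (PHF23) and ATG14 (FBXO34). NPC1 and SQSTM1 also overlap the protein-coding genes RMC1 and MRNIP, whose symbols were not matched, so the levels of those genes are not known here. VGLL4 had a fold change of 0.26 (limma adjusted p = 0.0239). Whether the counting used strand is not stated, and the part of these overlaps in the levels was not tested.

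Of the 4 ATG8 genes kept in the EZH2 series, 1 was higher with the mean and 2 were lower, where 17.0% of all genes were higher and 13.0% lower. GABARAPL2 (ENSG00000034713), a member also known as GATE-16, had 28.8 and 28.7 FPKM with siEZH2_2, 29.3 and 29.2 FPKM with siEZH2_1 and 24.5 and 23.3 FPKM with siNC, and rose by 0.27 ± 0.045 (SE; adjusted p = 0.00666) with no overlap between siEZH2 and siNC libraries. MAP1LC3B, the LC3B gene, and GABARAPL1 were lower with the mean, at -0.20 (adjusted p = 0.0448) and -0.18 (adjusted p = 0.0345), and with siEZH2_2 alone, but were not called with siEZH2_1. GABARAP had -0.14 (95% interval -0.37 to 0.096, adjusted p = 0.323). SQSTM1, whose protein bridges ubiquitinated cargo to the ATG8 proteins, had 36.9 and 36.5 FPKM with siEZH2_2, 42.5 and 42.5 FPKM with siEZH2_1 and 40.1 and 44.1 FPKM with siNC, with a fold change of -0.088 (95% interval -0.21 to 0.036, adjusted p = 0.241). MAP1LC3B and GABARAPL1 have close paralogs (MAP1LC3B2 and GABARAPL3) whose reads the counting may have split, so their levels are uncertain.

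TFEB, TFE3 and MITF were not called by limma with the mean, with 1 at an unadjusted p under 0.05. That gene was MITF, which had 0.87 and 1.11 FPKM with siEZH2_2, 0.76 and 0.78 FPKM with siEZH2_1 and 1.44 and 1.13 FPKM with siNC and a fold change of -0.28 (95% interval -0.52 to -0.043, adjusted p = 0.0757). TFEB and TFE3 had -0.051 (95% interval -0.26 to 0.16, adjusted p = 0.686) and -0.068 (95% interval -0.19 to 0.057, adjusted p = 0.36).

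Of the lysosomal genes in the EZH2 series, 2 of 4 membrane genes were lower with the mean, 0 of 5 lumen genes were called and 1 of 3 V-ATPase genes was higher, against 30.0% of all genes called in either direction. On the membrane, LAMP2, which takes part in fusion and in chaperone-mediated autophagy, had 20.6 and 21.01 FPKM with siEZH2_2, 24.1 and 21.4 FPKM with siEZH2_1 and 27.6 and 24.6 FPKM with siNC. All siEZH2 libraries lay below both siNC libraries, and the fold change was -0.25 ± 0.069 (SE; adjusted p = 0.0365). NPC1 had 4.15 and 4.47 FPKM with siEZH2_2, 4.68 and 4.54 FPKM with siEZH2_1 and 5.54 and 5.37 FPKM with siNC, also without overlap, with a fold change of -0.24 ± 0.060 (SE; adjusted p = 0.0259). LAMP1 and the calcium channel gene MCOLN1, which carry the promoter element printed above, had 0.016 (95% interval -0.093 to 0.13, adjusted p = 0.812) and -0.039 (95% interval -0.23 to 0.15, adjusted p = 0.727).

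None of the 5 lumen genes kept (CTSA, CTSB, CTSD, GLA and NPC2) was called with the mean, and none reached an unadjusted p under 0.05 in limma. Their fold changes ran from -0.13 for CTSB to 0.11 for GLA, the alpha-galactosidase. The aspartic protease gene CTSD had 39.5 and 34.6 FPKM with siEZH2_2, 35.6 and 41.4 FPKM with siEZH2_1 and 33.1 and 37.8 FPKM with siNC, with overlapping groups. Of the 3 V-ATPase genes, ATP6V0D1, a subunit of the membrane sector, rose by 0.22 ± 0.064 (SE; adjusted p = 0.0437), with 11.2 and 10.6 FPKM with siEZH2_2, 13.1 and 14.1 FPKM with siEZH2_1 and 9.83 and 10.8 FPKM with siNC. ATP6V1A and ATP6V1H, of the catalytic sector in the cytosol, had -0.11 (95% interval -0.32 to 0.097, adjusted p = 0.369) and -0.13 (95% interval -0.26 to -0.0067, adjusted p = 0.102). ATP6V0D1 was called with siEZH2_1 (0.37 (adjusted p = 0.0146)) and not with siEZH2_2 (0.071 (adjusted p = 0.523)). ATP6V1H was called lower with siEZH2_1 (-0.24 (adjusted p = 0.0293)) and not called with siEZH2_2 (-0.022 (adjusted p = 0.818)). Its call was lost without the filter on low values (0.0671) and with the replicate block (0.0683).

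Other calls of the EZH2 series with the mean were also lost with single libraries left out, most of them whichever library it was. ATP6V0D1 lost its call without any 1 of the 6 libraries (adjusted p 0.0518 to 0.278). LAMP2 lost it without siEZH2_2 replicate 1 or 2, siEZH2_1 replicate 2 or siNC replicate 1 (0.057 to 0.243). NPC1 lost it without any single library except siEZH2_2 replicate 2 (0.0576 to 0.169). MAP1LC3B and GABARAPL1 lost it without any single library except siEZH2_2 replicate 1 (0.085 to 0.217 and 0.0734 to 0.198).

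**Figure D2:**
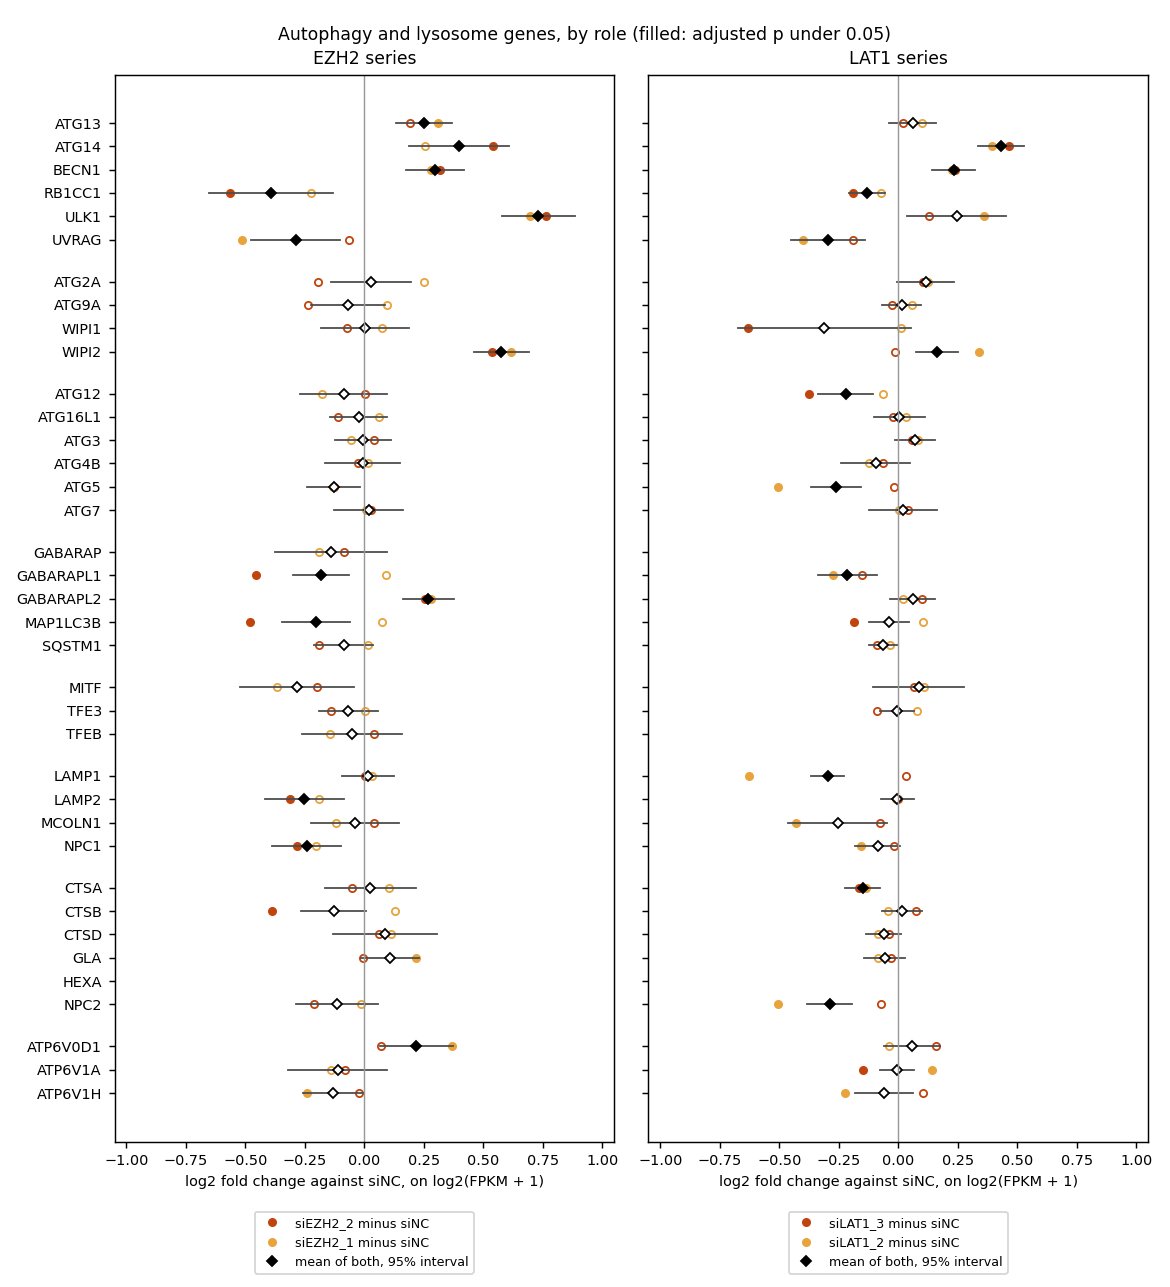
Log2 fold change on log2(FPKM + 1) of each gene against siNC, grouped by role from initiation at the top to V-ATPase at the bottom, in the EZH2 series (left) and the LAT1 series (right). Circles are single siRNAs, diamonds the mean of both with its 95% interval, and filled symbols passed an adjusted p of 0.05. ULK1 and WIPI2 stand furthest to the right in the EZH2 series, and LAMP1, NPC2 and ATG5 are far to the left in the LAT1 series for siLAT1_2 only.

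The siRNAs against EZH2 differed from each other in 8 of the 36 genes, 7 lower and 1 higher with siEZH2_2 than with siEZH2_1. Of all genes, 8.86% were lower and 7.40% higher, or 16.3% in all. The number that differed was 4 without siEZH2_1 replicate 1, 3 without siEZH2_1 replicate 2, 5 without siEZH2_2 replicate 1 and 3 without siEZH2_2 replicate 2. MAP1LC3B (ENSG00000140941) had 7.13 and 6.44 FPKM with siEZH2_2, 10.2 and 10.7 FPKM with siEZH2_1 and 9.94 and 9.75 FPKM with siNC. The siEZH2_2 libraries lay below all others, those of siEZH2_1 just above siNC, and the difference between siRNAs was -0.55 (95% interval -0.72 to -0.39, adjusted p = 0.00379). GABARAPL1, with 14.2 and 13.4 FPKM with siEZH2_2, 20.4 and 21.02 FPKM with siEZH2_1 and 19.5 and 19.1 FPKM with siNC, had the same order and a difference of -0.55 (95% interval -0.69 to -0.41, adjusted p = 0.00195).

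CTSB joined them, with 11.3 and 10.8 FPKM with siEZH2_2, 15.8 and 16.6 FPKM with siEZH2_1 and 14.2 and 15.4 FPKM with siNC. It was lower than siNC with siEZH2_2 (-0.39 (adjusted p = 0.00797)) and not called with siEZH2_1 (0.13 (adjusted p = 0.187)), and the siRNAs differed by -0.52 (95% interval -0.67 to -0.36, adjusted p = 0.00413). ATG2A had 3.77 and 3.86 FPKM with siEZH2_2, 5.18 and 5.95 FPKM with siEZH2_1 and 4.4 and 4.62 FPKM with siNC, so that siEZH2_2 lay below siNC and siEZH2_1 above it, and neither passed against siNC. The difference between the siRNAs was -0.44 (95% interval -0.64 to -0.25, adjusted p = 0.0153). ATG9A, ATP6V0D1 and GLA were also lower with siEZH2_2 than with siEZH2_1, by -0.33 (adjusted p = 0.0312), -0.30 (adjusted p = 0.0416) and -0.22 (adjusted p = 0.0482).

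UVRAG was the gene higher with siEZH2_2, by 0.45 (95% interval 0.24 to 0.67, adjusted p = 0.0201). For the remaining 28 genes the difference did not pass, and the intervals show what was measured. They were -0.11 to 0.24 for ULK1, -0.10 to 0.18 for BECN1, -0.22 to 0.050 for WIPI2 and -0.15 to 0.098 for GABARAPL2, on the log2 scale. EZH2 stood at 36.4% of siNC with siEZH2_2 and 40.6% with siEZH2_1, and SLC7A5 at 78.6% with siEZH2_2 and 24.9% with siEZH2_1. The part of the gap in SLC7A5 in these differences was not tested.

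MAP1LC3B, GABARAPL1 and CTSB kept the difference under every alternative run. Those of GLA and ATP6V0D1 were lost without any single library (adjusted p 0.0638 to 0.248 and 0.0502 to 0.22). UVRAG lost it without siEZH2_1 replicate 1 (0.085), siEZH2_1 replicate 2 (0.1) and siEZH2_2 replicate 2 (0.0835). ATG2A lost it without siEZH2_1 replicate 2 (0.0973) and without siEZH2_2 replicate 1 or 2 (0.0579 and 0.061). ATG9A lost it without siEZH2_1 replicate 1 or 2 (0.0968 and 0.161) and without siEZH2_2 replicate 2 (0.143).

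In the LAT1 series the question is how these genes respond when the transcript of the amino acid transporter is reduced. With the mean of both siRNAs, 3 of 34 genes were higher than in siNC and 8 were lower, while 23 were not called. BECN1, ATG14 and WIPI2 rose, and the falls included lysosomal, conjugation and initiation genes. The shares were 8.82% higher and 23.5% lower, where 19.3% of all genes were called higher and 15.3% lower. The median fold change was -0.022 over the 34 genes and 0.010 over all genes. With siLAT1_3 alone, 2 genes were higher and 6 lower (17.9% and 13.6% of all genes, 31.4% in either direction). With siLAT1_2 alone, 5 were higher and 9 lower (18.6% and 13.9% of all genes, 32.5% in either direction). The 11 calls with the mean stand against 34.5% of all genes. Called with each siRNA alone in the same direction were BECN1 and ATG14, both higher, and CTSA, lower, where 11.2% of all genes were called higher and 5.31% lower with each. ATP6V1A was called in opposite directions by the siRNAs, as were 1.46% of all genes. The lower calls numbered 4 without siNC replicate 1 and 3 without siNC replicate 2, and the genes called the same way with each siRNA were 1 without siNC replicate 1.

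In initiation and nucleation, 2 genes rose and 2 fell with the mean in the LAT1 series, where 19.3% of all genes were higher and 15.3% lower. ATG14 (ENSG00000126775) had 7.55 and 7.65 FPKM with siLAT1_3, 7.26 and 7.11 FPKM with siLAT1_2 and 5.15 and 5.29 FPKM with siNC. The 4 siLAT1 libraries all exceeded both siNC libraries by more than the spread within groups, and ATG14 rose by 0.43 ± 0.040 (SE; adjusted p = 0.000396). BECN1 had 13.1 and 12.8 FPKM with siLAT1_3, 12.9 and 12.7 FPKM with siLAT1_2 and 10.5 and 11.2 FPKM with siNC, again without overlap, and rose by 0.23 ± 0.038 (SE; adjusted p = 0.00404). Its partner UVRAG had 4.03 and 4.02 FPKM with siLAT1_3, 3.27 and 3.4 FPKM with siLAT1_2 and 4.37 and 5.11 FPKM with siNC, and fell, with a fold change of -0.30 ± 0.066 (SE; adjusted p = 0.0139).

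RB1CC1 had 23.5 and 22.3 FPKM with siLAT1_3, 25.2 and 24.7 FPKM with siLAT1_2 and 26.2 and 26.3 FPKM with siNC, a small fall, with a fold change of -0.13 ± 0.032 (SE; adjusted p = 0.0195). ULK1 was called with siLAT1_2 (0.13 (adjusted p = 0.386) with siLAT1_3, 0.36 (adjusted p = 0.0338) with siLAT1_2) but not with the mean (0.24 (95% interval 0.036 to 0.45, adjusted p = 0.0721)), and the siLAT1_2 call was lost without either siLAT1_2 library or either siNC library (0.0579 to 0.159). ATG13 had 0.061 (95% interval -0.038 to 0.16, adjusted p = 0.298). ATG14 shares its locus with FBXO34, an F-box gene, which had a fold change of -0.10 (adjusted p = 0.0467) in the LAT1 series and -0.0014 (adjusted p = 0.992) in the EZH2 series, where ATG14 rose.

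WIPI2 was the called gene of membrane growth, with 7.42 and 7.26 FPKM with siLAT1_3, 9.58 and 9.76 FPKM with siLAT1_2 and 7.44 and 7.42 FPKM with siNC. Its siLAT1_3 libraries lay at or just below siNC and those of siLAT1_2 stood above, giving a mean rise of 0.16 ± 0.037 (SE; adjusted p = 0.0154). WIPI1 had 1.14 and 0.53 FPKM with siLAT1_3, 1.88 and 1.76 FPKM with siLAT1_2 and 2.1 and 1.53 FPKM with siNC, called lower with siLAT1_3 (-0.63 (adjusted p = 0.0355)) at levels close to the limit of 1 FPKM. That call was lost without any single library except siLAT1_3 replicate 1 (0.0545 to 0.181). ATG2A and ATG9A had 0.12 (95% interval -0.0042 to 0.24, adjusted p = 0.122) and 0.014 (95% interval -0.067 to 0.095, adjusted p = 0.784).

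Of the 6 conjugation genes, ATG5 and ATG12, whose products are joined to each other, were lower with the mean, as were 15.3% of all genes. ATG5 (ENSG00000057663) had 16.03 and 15.4 FPKM with siLAT1_3, 10.5 and 11.4 FPKM with siLAT1_2 and 15.6 and 16.4 FPKM with siNC, a fold change of -0.26 ± 0.044 (SE; adjusted p = 0.00457). ATG12 had 5.47 and 5.14 FPKM with siLAT1_3, 6.56 and 7.07 FPKM with siLAT1_2 and 7.2 and 7.15 FPKM with siNC, a fold change of -0.22 ± 0.049 (SE; adjusted p = 0.0136). The falls came from different siRNAs, ATG5 with siLAT1_2 and ATG12 with siLAT1_3. ATG3, ATG4B, ATG7 and ATG16L1 lay between -0.095 and 0.070 and were not called.

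Among the ATG8 genes, GABARAPL1 had 17.8 and 20.04 FPKM with siLAT1_3, 16.7 and 17.8 FPKM with siLAT1_2 and 21.3 and 20.8 FPKM with siNC and fell, with a fold change of -0.21 ± 0.052 (SE; adjusted p = 0.0202). GABARAPL2 had 0.060 (95% interval -0.034 to 0.15, adjusted p = 0.283) and MAP1LC3B -0.039 (95% interval -0.12 to 0.046, adjusted p = 0.438). SQSTM1 had 65.5 and 66.6 FPKM with siLAT1_3, 67.9 and 69.5 FPKM with siLAT1_2 and 69.2 and 71.6 FPKM with siNC, with all siLAT1 libraries except siLAT1_2 replicate 2 below both siNC libraries and a fold change of -0.063 (95% interval -0.12 to -0.00084, adjusted p = 0.108). TFE3 and MITF, the kept transcription factor genes, were not called by limma with the mean and had no unadjusted p under 0.05, at -0.0042 (95% interval -0.077 to 0.068, adjusted p = 0.927) and 0.086 (95% interval -0.11 to 0.28, adjusted p = 0.452).

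With siLAT1_3, 0 of 4 lysosomal membrane genes, 1 of 5 lumen genes and 1 of 3 V-ATPase genes were lower and none was higher, where 13.6% of all genes were lower. With siLAT1_2, 3 of 4 membrane genes, 2 of 5 lumen genes and 1 of 3 V-ATPase genes were lower and 1 V-ATPase gene was higher, where 13.9% of all genes were lower. LAMP1 (ENSG00000185896) had 40.3 and 40.8 FPKM with siLAT1_3, 24.8 and 25.8 FPKM with siLAT1_2 and 40.2 and 38.95 FPKM with siNC, so that siLAT1_3 lay with siNC and siLAT1_2 stood well below. NPC2, which binds cholesterol in the lumen and hands it to NPC1, had 25.6 and 25.6 FPKM with siLAT1_3, 17.9 and 19.6 FPKM with siLAT1_2 and 27.1 and 26.8 FPKM with siNC, in the same order. Their mean fold changes were -0.30 ± 0.029 (SE; adjusted p = 0.000485) for LAMP1 and -0.29 ± 0.039 (SE; adjusted p = 0.00187) for NPC2. CTSA, the protective protein of the lysosomal sialidase, had 16.4 and 15.99 FPKM with siLAT1_3, 16.8 and 16.4 FPKM with siLAT1_2 and 18.4 and 18.2 FPKM with siNC. It was lower with both siRNAs, with a mean fold change of -0.15 ± 0.031 (SE; adjusted p = 0.0104).

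CTSB, CTSD and GLA had fold changes between -0.062 and 0.016 and were not called. LAMP2 had -0.0034 (95% interval -0.073 to 0.066, adjusted p = 0.94), NPC1 -0.087 (95% interval -0.18 to 0.0073, adjusted p = 0.136) and MCOLN1 -0.25 (95% interval -0.46 to -0.046, adjusted p = 0.0635). NPC1 was lower with siLAT1_2 (-0.16 (adjusted p = 0.04)), a call lost without either siLAT1_2 library or either siNC library (0.0874 to 0.154). None of the 3 V-ATPase genes was called by limma with the mean, and none reached an unadjusted p under 0.05, although ATP6V1A and ATP6V1H were called with single siRNAs.

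BECN1 and ATG14 held their calls with the mean under every alternative run, and LAMP1, NPC2 and ATG5 under all but pooling of the siRNAs. Without siNC replicate 1, the adjusted p was 0.0856 for WIPI2, 0.0879 for ATG12, 0.0776 for CTSA, 0.127 for GABARAPL1 and 0.0983 for RB1CC1. Without siNC replicate 2, it was 0.0891 for WIPI2, 0.0793 for ATG12, 0.0581 for CTSA, 0.0867 for GABARAPL1, 0.11 for RB1CC1 and 0.105 for UVRAG. With the siRNAs pooled in a single group, LAMP1 had 0.448, ATG5 0.377, NPC2 0.283 and WIPI2 0.463.

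The siRNAs against SLC7A5 differed in 12 of the 34 genes, 6 higher and 6 lower with siLAT1_3 than with siLAT1_2. Of all genes, 12.4% were higher and 13.1% lower, or 25.5% in all. Genes lower with siLAT1_2 alone included LAMP1 (-0.63 (adjusted p = 4.35e-05)), ATG5 (-0.51 (adjusted p = 0.000578)) and NPC2 (-0.51 (adjusted p = 0.000332)). Their differences between siRNAs were 0.66 (95% interval 0.58 to 0.74, adjusted p = 4.69e-05) for LAMP1, 0.49 (95% interval 0.36 to 0.61, adjusted p = 0.000869) for ATG5 and 0.43 (95% interval 0.32 to 0.54, adjusted p = 0.000857) for NPC2.

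MCOLN1, with 1.9 and 1.74 FPKM with siLAT1_3, 1.32 and 1.1 FPKM with siLAT1_2 and 2.14 and 1.82 FPKM with siNC, was lower with siLAT1_2 and differed by 0.35 (95% interval 0.11 to 0.59, adjusted p = 0.0442). The fall with siLAT1_2 had an adjusted p of 0.0874 without siLAT1_2 replicate 2 and 0.106 without siNC replicate 1. Among the V-ATPase genes, ATP6V1H had 10.96 and 10.6 FPKM with siLAT1_3, 8.85 and 7.93 FPKM with siLAT1_2 and 9.71 and 10.2 FPKM with siNC and differed by 0.33 (95% interval 0.19 to 0.47, adjusted p = 0.00827). It was lower with siLAT1_2 (-0.22 (adjusted p = 0.0274)), a call lost without siLAT1_2 replicate 2 or either siNC library (0.0696 to 0.14). ATP6V0D1 was not called with either siRNA and differed by 0.20 (95% interval 0.062 to 0.33, adjusted p = 0.0452). ATP6V1A (ENSG00000114573), the catalytic subunit, had 23.99 and 23.7 FPKM with siLAT1_3, 30.01 and 28.8 FPKM with siLAT1_2 and 26.4 and 26.7 FPKM with siNC. The siLAT1_3 libraries were below siNC (-0.15 (adjusted p = 0.0162)) and the siLAT1_2 libraries above it (0.14 (adjusted p = 0.0199)), a difference of -0.29 (95% interval -0.37 to -0.21, adjusted p = 0.0013). Against siNC the call with siLAT1_3 was lost without either siLAT1_3 library or either siNC library (0.052 to 0.086), and that with siLAT1_2 without siLAT1_2 replicate 1 or either siNC library (0.0749 to 0.0995).

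Lower with siLAT1_3 than with siLAT1_2 were also WIPI2, by -0.36 (95% interval -0.46 to -0.25, adjusted p = 0.00152), and WIPI1, by -0.64 (95% interval -1.06 to -0.22, adjusted p = 0.039). ATG12 differed by -0.31 (95% interval -0.44 to -0.18, adjusted p = 0.00841), and it was called lower with siLAT1_3 (-0.38 (adjusted p = 0.00321)). MAP1LC3B had 8.34 and 8.13 FPKM with siLAT1_3, 10.3 and 10.3 FPKM with siLAT1_2 and 9.6 and 9.39 FPKM with siNC, so that siLAT1_3 lay below siNC and siLAT1_2 above it. It was called lower with siLAT1_3 (-0.18 (adjusted p = 0.0158); 0.0584 to 0.09 without siLAT1_3 replicate 2 or either siNC library), and the siRNAs differed by -0.29 (95% interval -0.39 to -0.19, adjusted p = 0.00311). TFE3 differed by -0.17 (95% interval -0.25 to -0.085, adjusted p = 0.0144), with no call against siNC for either siRNA.

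For BECN1, ATG14 and CTSA the intervals of the difference were -0.092 to 0.12, -0.040 to 0.18 and -0.12 to 0.053. SLC7A5 stood at 26.0% of siNC with siLAT1_3 and 20.3% with siLAT1_2, a difference that was itself called (log2 0.36, adjusted p = 0.000803), and its part in the differences was not tested. The differences of LAMP1, ATG5, NPC2, WIPI2, ATG12, MAP1LC3B and ATP6V1A held under every alternative run. That of ATP6V1H was lost without the filter on low values (0.0503). WIPI1, MCOLN1, ATP6V0D1 and TFE3 lost theirs with single libraries left out. The adjusted p was then 0.0535 to 0.139 for WIPI1 (all but siLAT1_3 replicate 1) and 0.0605 to 0.175 for MCOLN1 (any library). It was 0.0559 to 0.19 for ATP6V0D1 (any library) and 0.0527 to 0.0671 for TFE3 (any siLAT1 library).

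**Figure D3:**
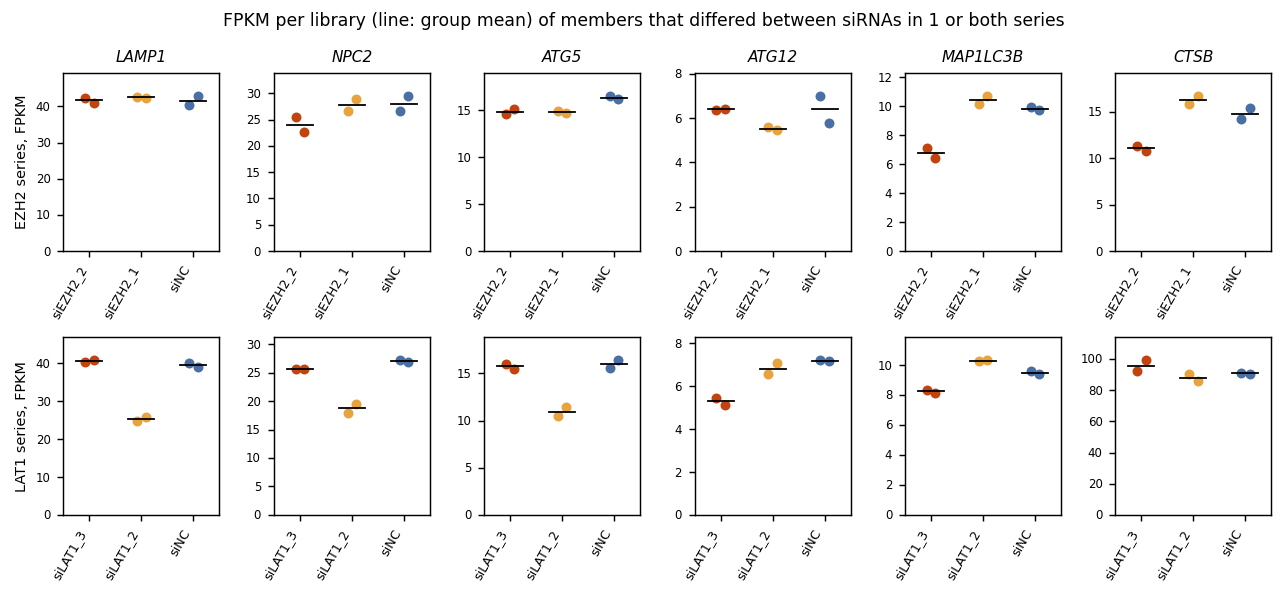
FPKM in each library of 6 genes that differed between siRNAs in 1 or both series, with the EZH2 series above and the LAT1 series below. Points are libraries and lines group means, on axes that start at 0. LAMP1, NPC2 and ATG5 are low in both siLAT1_2 libraries, ATG12 in both siLAT1_3 libraries, and MAP1LC3B and CTSB in both siEZH2_2 libraries.

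Set side by side, the series shared some of these changes, to a degree near that of all genes kept in both. Each has its own siNC libraries and was fitted alone, and no test spans them. The 3 genes called higher in both were BECN1, ATG14 and WIPI2. Their mean fold changes with siEZH2 were 0.30, 0.40 and 0.58 in that order of genes, and with siLAT1 0.23, 0.43 and 0.16. The 3 called lower in both were UVRAG, RB1CC1 and GABARAPL1. They had -0.29, -0.39 and -0.18 with siEZH2, and -0.30, -0.13 and -0.21 with siLAT1. None of these 3 falls was called with both siRNAs of a series. UVRAG was called with siEZH2_1 and siLAT1_2, RB1CC1 with siEZH2_2 and siLAT1_3, and GABARAPL1 with siEZH2_2 and siLAT1_2. Of the rises, ATG14 was not called with siEZH2_1 alone and WIPI2 was not called with siLAT1_3 alone. No gene of the 34 was called in opposite directions. Of the 10804 genes kept in both series, 1071 were called higher in both, 630 lower in both and 149 in opposite directions.

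Over the 34 genes, 24 had the same sign in both series, as had 7233 of the 10804 genes kept in both. Across these genes Pearson's r was 0.612 and Spearman's rho 0.502, where all genes gave 0.573 and 0.506, a description across genes, which are not independent replicates. Within nucleation, BECN1 and ATG14 were higher and UVRAG lower in both series. ULK1, the largest rise of the EZH2 series (0.73), had 0.24 in the LAT1 series, whereas LAMP1 had 0.016 in the EZH2 series and was called lower in the LAT1 series (-0.30).

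**Figure D4:**
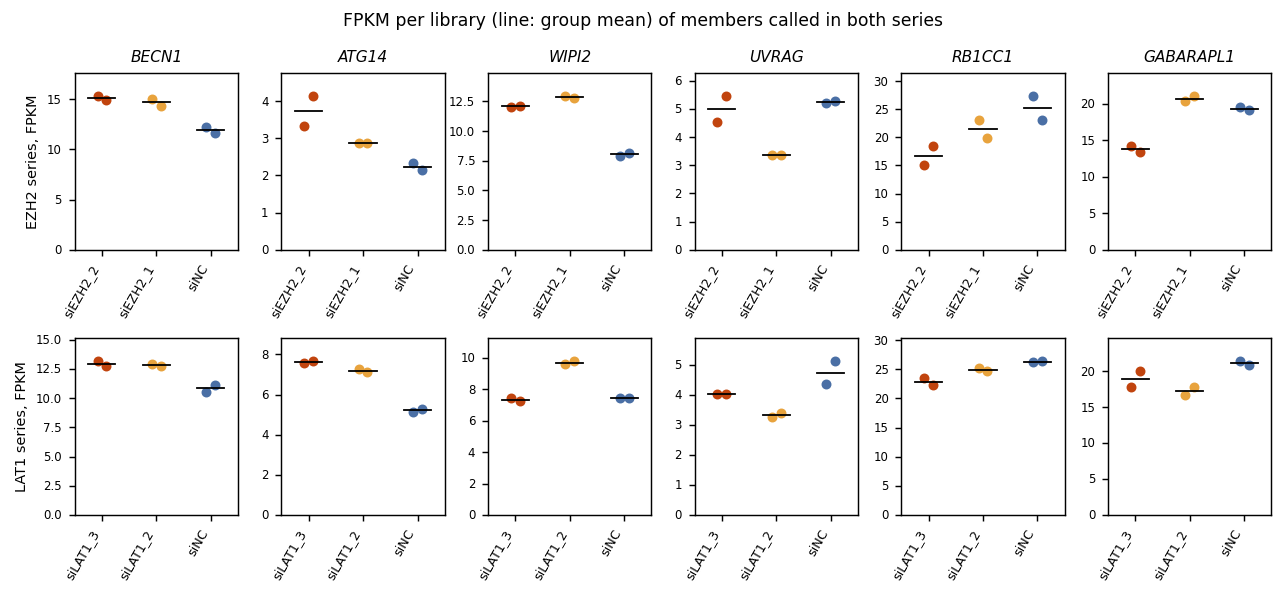
FPKM in each library of the 6 genes called with the mean of both siRNAs in both series, with the EZH2 series above and the LAT1 series below. Points are libraries and lines group means, on axes that start at 0. BECN1 and ATG14 lie above siNC with each of the 4 siRNAs, whereas WIPI2 lies with siNC under siLAT1_3 and UVRAG overlaps siNC under siEZH2_2.

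**Figure D5:**
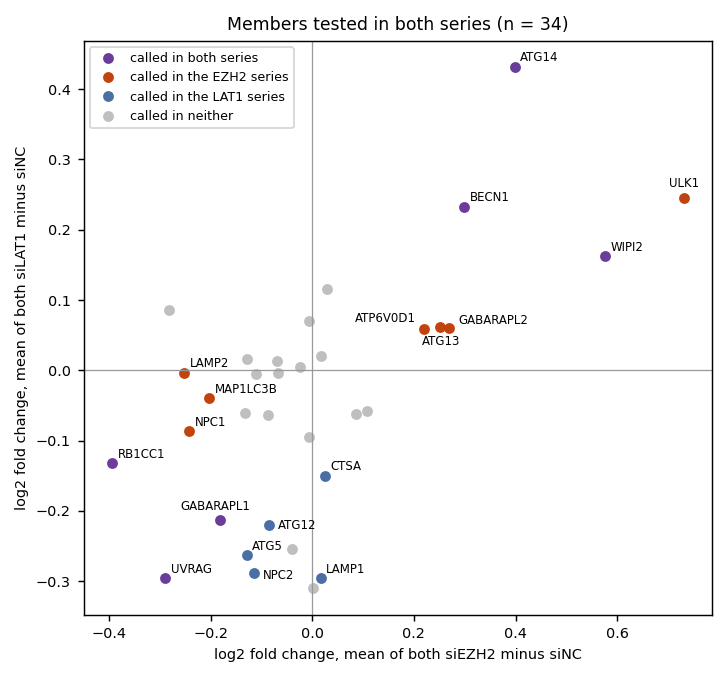
Log2 fold changes of the 34 genes kept in both series, with the mean of both siEZH2 siRNAs minus siNC on the horizontal axis and the mean of both siLAT1 siRNAs minus siNC on the vertical axis. Colours mark in which series a gene was called. BECN1, ATG14 and WIPI2 are at the upper right, and UVRAG, RB1CC1 and GABARAPL1 at the lower left.

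Of the 7 genes with the promoter element, ATG14 and ATP6V0D1 were called in the EZH2 series, both higher, where 30.0% of all genes were called. ATP6V0D1 lost that call with any single library left out, and ATG14 with either siNC library left out. In the LAT1 series, ATG14 was higher and LAMP1 and CTSA were lower, where 34.5% of all genes were called. A link between the element and these changes was not tested. MCOLN1 was called with siLAT1_2 alone (-0.43 (adjusted p = 0.0178)). CTSD and ATG3 were not called with either mean, at 0.087 with siEZH2 and -0.062 with siLAT1 for CTSD, and -0.0070 with siEZH2 and 0.070 with siLAT1 for ATG3.

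Beyond these 37 genes, 9 lists of further genes of the same pathways held 184 symbols, of which 183 were found. In the EZH2 series 155 were tested, with 19 higher and 21 lower (12.3% and 13.5%, against 17.0% and 13.0% of all genes). In the LAT1 series 158 were tested, with 23 higher and 33 lower (14.6% and 20.9%, against 19.3% and 15.3%). These shares of all genes are also the background for the counts of each list below, and several lists hold few genes. Genes named from here on were called with the mean and with each siRNA alone.

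Among further initiation genes in the EZH2 series, 1 of 12 was higher and 2 were lower. TMEM41B, a scramblase of the endoplasmic reticulum needed for autophagosome formation, rose by 0.51 ± 0.062 (SE; adjusted p = 0.002). ZFYVE1, which marks the sites where autophagosomes arise, fell by 0.32 (adjusted p = 0.0158), and with siLAT1 it fell by 0.49 (adjusted p = 0.00161), as 1 of 3 lower of 12 there. Of 16 receptors of selective autophagy, 3 were higher and 2 lower with siEZH2, and 3 higher and 5 lower with siLAT1. TAX1BP1, a ubiquitin-binding receptor, rose by 0.33 with siEZH2 and 0.29 with siLAT1, and BCL2L13, a receptor on mitochondria, by 0.29 with siEZH2 and 0.32 with siLAT1. With siLAT1, CALCOCO2, the receptor NDP52, rose by 0.28, and BNIP3, a receptor on mitochondria, fell by 0.42.

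Of the further hydrolase genes, 6 of 38 were higher and 5 lower with siEZH2, and 7 of 41 were higher and 10 lower with siLAT1. PPT1, palmitoyl-protein thioesterase, rose by 0.43 with siEZH2 and 0.37 with siLAT1. CTSH, a cathepsin, rose by 0.41 with siEZH2 and 0.35 with siLAT1. FUCA1, the lysosomal fucosidase, fell by 0.46 with siEZH2 (adjusted p = 0.0127), and PSAP, the precursor of saposins, fell by 0.12 with siLAT1 (adjusted p = 0.00646). Of the further V-ATPase genes, 1 of 13 was higher and 3 lower with siEZH2, and 2 of 14 were higher and 3 lower with siLAT1. ATP6V1G1 (0.46) and ATP6V1F (0.24) rose with siLAT1, and ATP6V1D fell by 0.43.

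Other lysosomal membrane genes had 3 of 23 higher and 4 lower with siEZH2, and 4 of 23 higher and 7 lower with siLAT1. TMEM175, a lysosomal ion channel, rose by 0.40 with siEZH2. With siLAT1, TMEM192 rose by 0.47, while SLC36A1, an amino acid transporter of lysosomes, fell by 0.45 and LAPTM4B fell by 0.15. Genes that deliver enzymes to lysosomes had 2 of 21 higher and 1 lower with siEZH2, and 4 of 21 higher and 1 lower with siLAT1. HPS4 rose by 0.35 with siEZH2 and 0.35 with siLAT1. With siLAT1, IGF2R, the large mannose 6-phosphate receptor, rose by 0.34, whereas M6PR, the small one, fell by 0.24.

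Fusion genes had 3 of 19 higher and 2 lower with siEZH2, among them VPS18 of the HOPS tethering complex, which fell by 0.25. They had 1 higher and 3 lower with siLAT1, with VPS41 of the same complex higher by 0.21. Further conjugation genes had 0 of 6 higher and 1 lower with siEZH2 (limma; 2 at an unadjusted p under 0.05), and 2 of 5 higher and 1 lower with siLAT1, where ATG10 (0.35) and ATG4C (0.21) rose. Regulators of the TFEB family had 0 of 7 higher and 1 lower with siEZH2, and none of 7 was called with siLAT1 by limma or reached an unadjusted p under 0.05.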

How the data were processed

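RNA levels were read from 2 deposited tables, 1 per series, in which the authors gave FPKM for each gene and library; that the unit is FPKM was taken from the values and column sums. Per the submitters' processing notes, STAR, Bowtie, Bowtie2, Picard and Trim Galore and the builds hg38 and hg19 were used, in roles not given. The counter, gene lengths and strand setting are not given in the sources used here. The 2 EZH2 CUT&Tag samples were not analysed here.

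The genes and the 9 wider lists were chosen with earlier results of these data known. All genes of the list may be named; from a wider list, up to 3 per direction with the largest mean fold change among those called with the mean and with each siRNA. Where a symbol had several IDs (GLA, TFE3), the one with the higher mean was used. One wider symbol was not matched. A gene that this rule names is not reported here.

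Each table was fitted alone with limma 3.58.1 in R 4.3.3 (trend, 1 group per siRNA and siNC, two-sided) on log2(FPKM + 1), for genes whose mean over the table reached 1 FPKM. Contrasts were the mean of both siRNAs, weighted equally, minus siNC, each siRNA minus siNC, and siEZH2_2 minus siEZH2_1 or siLAT1_3 minus siLAT1_2. Intervals are at 95%. With 4 siRNA and 2 siNC libraries the smallest p of an exact permutation test is 0.0667, so calls rest on the spread pooled across genes. Each of these choices was changed in turn: quantile normalization, robust variance, a replicate block, pooling of the siRNAs, a filter at 5 FPKM or none, a pseudocount of 0.1, and leaving out each library. Libraries of a group correlated at r = 0.993 to 0.995 across genes. In the depth estimate, 86.1% to 92.2% of low values came out as near-whole numbers of reads or fragments. In the LAT1 series the siNC libraries were numbered by their descriptions, since their titles repeat 1 number.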

Additional observations from a re-analysis of the deposited data

Results flagged for a closer look

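ATP6V1A, the catalytic subunit of V-ATPase, moved one way with 1 siRNA against SLC7A5 and the other way with the other. With siLAT1_3 both libraries lay below both siNC libraries (log2 fold change -0.15, limma adjusted p = 0.0162), and with siLAT1_2 both lay above (0.14, adjusted p = 0.0199). The difference between siLAT1_3 and siLAT1_2 was -0.29 (adjusted p = 0.0013), and it passed under all 12 alternatives run for it. The calls of each siRNA against siNC were less firm, and both were lost without either siNC library. Of all genes, 1.46% were called in opposite directions by the siRNAs against SLC7A5. The part of the unequal SLC7A5 levels in the difference between the siRNAs was not tested.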

How the results depend on the processing

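No result changed direction past its threshold under any alternative, and limma was the only tool run. In the EZH2 series, the genes higher with the mean (7) numbered 4 with both siRNAs pooled as 1 group and 3 to 6 with 1 library left out. The genes lower (6) numbered 0 without a filter and 0 with the siRNAs pooled, and 0 to 3 with 1 library left out. Those called the same way with each siRNA (4) numbered 2 to 3, and those that differed between siRNAs (8) numbered 3 without a filter and 3 to 6 with 1 library left out. All genes called (3481) numbered 1820 without a filter, 1153 with the siRNAs pooled and 1360 to 3360 with 1 library left out. In the LAT1 series, the genes lower (8) numbered 5 without a filter, 0 with the siRNAs pooled and 3 to 9 with 1 library left out, and those called the same way with each siRNA (3) numbered 1 to 3. All genes called (4032) numbered 1309 with the siRNAs pooled and 2288 to 3602 with 1 library left out. Pooling adds the gap between siRNAs to the spread.

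The replicate numbers are not stated to pair libraries, and not every pair of same-numbered libraries deviated together. In the EZH2 series the correlation of their deviations was 0.355 between siEZH2_1 and siNC, but -0.339 between siEZH2_2 and siNC and -0.353 between siEZH2_2 and siEZH2_1. In the LAT1 series it was 0.0177 to 0.0826. With the replicate block, the genes lower in the EZH2 series (6) numbered 1 and those that differed between siRNAs 5, and the other counts of genes stayed within 1.5 times their value. Genes near 1 FPKM, such as MITF, TFEB and WIPI1, rest on few reads.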
